A study of Rattus norvegicus with 6 samples.

Results

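The genes described here encode the contractile filaments of muscle and of the cell cortex: myosin heavy and light chains, troponins, tropomyosins and actins. They were taken by name from the count table of rat lung, as every gene symbol made of Myh, Myl, Tnnc, Tnni or Tnnt followed by a digit, together with Tpm1 to Tpm4, Acta1, Acta2, Actb, Actc1, Actg1 and Actg2. This gave 42 of 40995 genes. By the muscle in which each isoform is best known, 13 were classed as skeletal, 11 as cardiac, 4 as smooth muscle, 8 as nonmuscle and 4 as tropomyosins, whose genes each make muscle and nonmuscle forms. Myl10 is a light chain of uncertain muscle type. Tnni3k, which the naming rule also takes in, is a kinase that binds cardiac troponin I and not a troponin; these 2 were left unclassified.

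In striated muscle, bundles of myosin heavy chains with their essential and regulatory light chains pull on filaments of alpha actin. Tropomyosin lies along the actin and blocks the myosin sites until calcium binds troponin C, which acts through the inhibitory troponin I and the tropomyosin-binding troponin T. Smooth muscle and nonmuscle cells lack troponin as a switch and turn myosin on by phosphorylating its regulatory light chain. Lung holds smooth muscle around airways and vessels, nonmuscle actomyosin in every cell, and, in rodents, sleeves of cardiac muscle that run from the heart along the pulmonary veins. Skeletal muscle is not a normal part of lung tissue.

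The rats were of Sprague-Dawley background and received no treatment. Lungs of 3 wild-type (WT) animals were compared with lungs of 3 crTMPRSS2 knockout (KO) animals. CRISPR/Cas9 had been aimed at Tmprss2 to make their line; it is the gene of a serine protease on the surface of epithelial cells. The labels give neither age nor sex, and they do not say which cut or allele the line carries. The labels call the libraries biological replicates, read here as 1 animal each, and place all 6 libraries in 1 batch.

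Total counts were 33839171, 33033732 and 36895162 in the WT libraries and 29933359 to 30514778 in the KO libraries. CPM below is counts per 1e6 counts after TMM scaling, and is used to compare libraries for the same gene. FPKM, which also divides by gene length, is used to compare different genes and to sum the genes of a class. Tmprss2 mRNA was at 50.5, 62.0 and 65.7 CPM in WT and 46.1, 56.4 and 47.0 CPM in KO (edgeR log2 fold change -0.25, adjusted p 0.508; without WT replicate 1 -0.36, adjusted p 0.0589). The ranges overlap, so this mRNA total does not check the genotype labels. Summed CPM of 8 lung markers, among them the surfactant protein genes, lay between 22869 and 37088 in all 6 libraries. WT replicate 1 stood apart: it had a score of -79.0 on the leading principal component of log2(CPM + 1), with 70.2% of the variance, and the other libraries had scores of 7.67 to 21.7. The fits were run with all 6 libraries and again without WT replicate 1. This second fit had been set beforehand, with earlier results of these data known.

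After the filter on low counts, 33 of the 42 genes could be tested in each fit. With all 6 libraries, 0 of 33 passed edgeR's quasi-likelihood test at a Benjamini-Hochberg adjusted p under 0.05, where 0.0542% of the 18464 genes tested passed (0.0162% higher in KO and 0.0379% lower). At an unadjusted p under 0.05 there were 9 of 33, beside 11.3% of all genes; limma-voom called 0 (0.0379% of all genes passed) and DESeq2 called 1, Myh14 (2.02% of all genes). In the fit without WT replicate 1, 2 of 33 passed, Myh14 and Actg1, both lower in KO. In that fit 3.99% of 18994 genes passed, 1.65% higher and 2.34% lower, and 9 of 33 members were under an unadjusted p of 0.05 beside 17.8% of all genes. The median log2 fold change of the 33 was -0.15 with all libraries, 22 of them below 0, and 0.03 without WT replicate 1, 14 of them below 0. Over all genes tested the medians were -0.0029 and 0.0036. The 9 genes without a test were Myh1, Myh3, Myh4, Myh8, Myh15, Myl1, Myl2, Myl10 and Tnnc2, which did not reach the minimum count in enough libraries. Myh15 had no count in any library; a count of 0 allows up to 3 counts, or 0.0804 to 0.102 CPM by library, for counting error only, and more if both reads of a pair were counted.

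**Figure D1:**
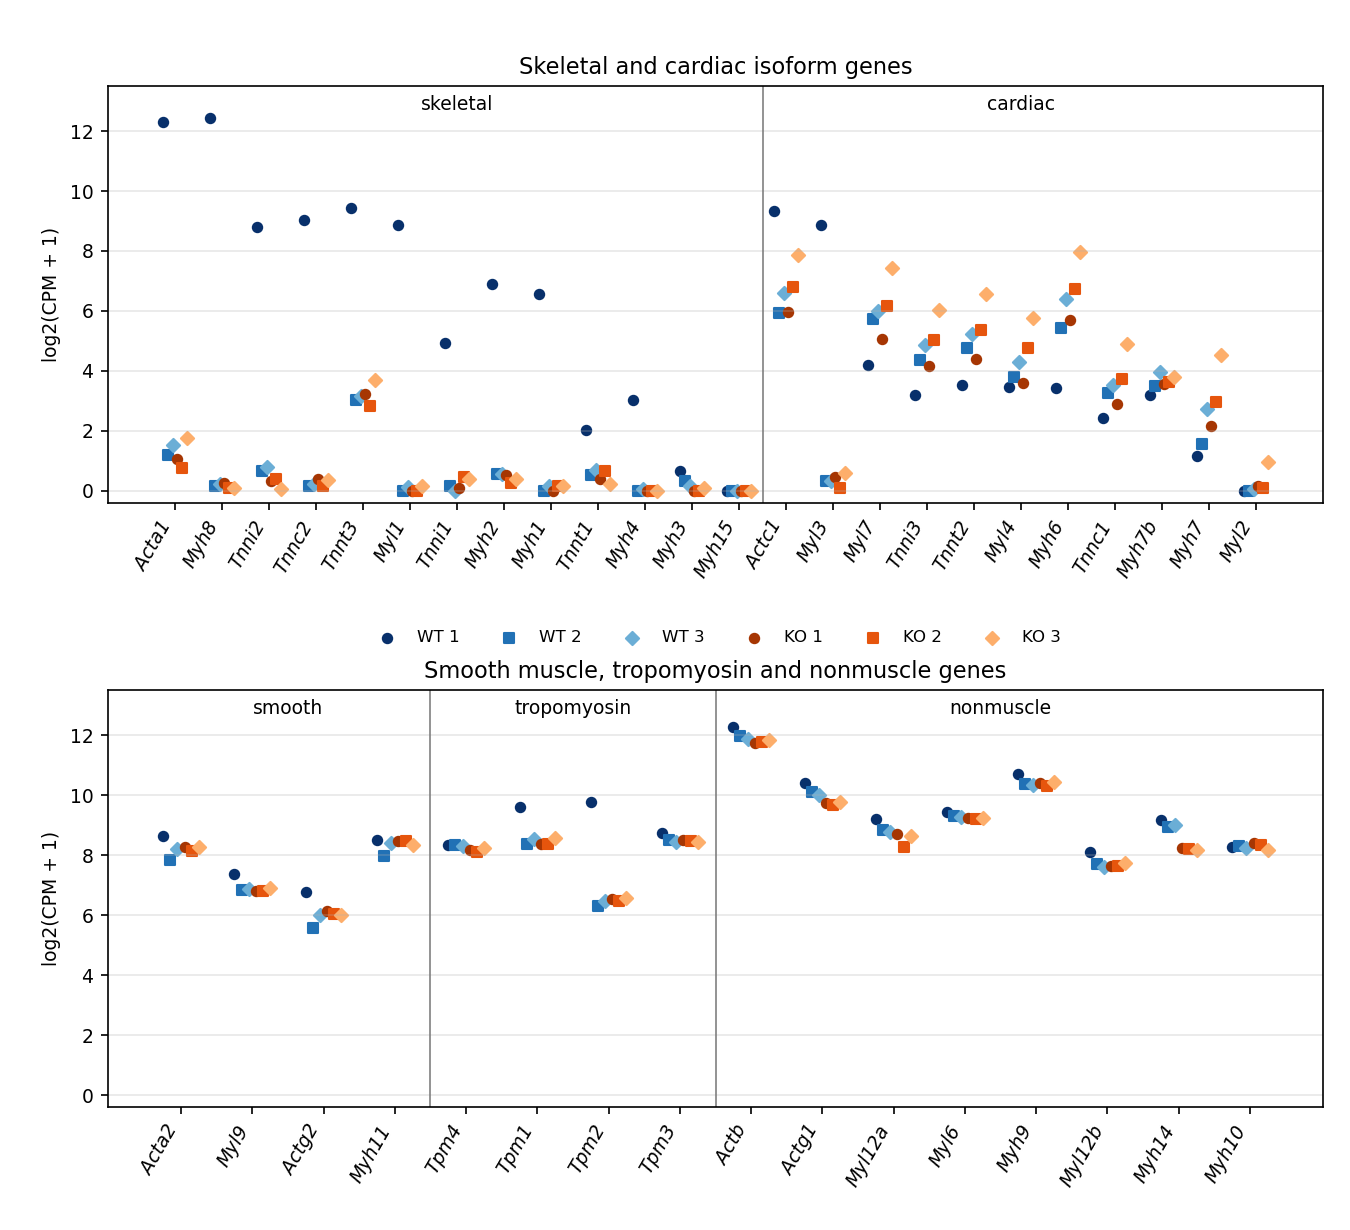
Level of 40 of the 42 genes in each library, on a log2(CPM + 1) axis, with genes grouped by isoform class (the 2 unclassified genes are not drawn). Blue points are the WT animals and orange points the KO animals. The dark blue circle of WT replicate 1 is far above the other 5 for most skeletal genes and for Myl3, while KO replicate 3 is on top for most cardiac genes, and Myh14 is the gene whose blue and orange points are most clearly apart in the lower panel.

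Skeletal isoforms were abundant in WT replicate 1 and close to absent elsewhere. Acta1, skeletal alpha actin, was measured at 5077 CPM in that animal, at 1.27 and 1.90 CPM in the other WT animals, and at 1.10, 0.694 and 2.39 CPM in the KO animals. Myh8, the perinatal myosin heavy chain, had 5518 CPM in WT replicate 1 and no more than 0.194 CPM in any other library. Tnni2, fast troponin I, had 446 CPM there, then 0.573 and 0.751 CPM in WT and 0.259, 0.315 and 0.0319 CPM in KO. Among the 5 libraries other than WT replicate 1, the genotypes overlap for Acta1, while for Tnni2 every KO animal is under the WT animals at levels below 1 CPM. Tnnc2, fast troponin C, had 528 CPM in WT replicate 1 against 0.121 to 0.324 CPM, with KO replicate 1 the next highest.

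The other skeletal genes differed mainly in how high WT replicate 1 was. Fast troponin T (Tnnt3) had 690 CPM in it and 6.05 to 11.9 CPM in the rest, the only skeletal isoform that stayed above 5 CPM throughout. The fast essential light chain Myl1 had 466 CPM against at most 0.128 CPM. Lower levels in WT replicate 1 were those of Myh2 (118 CPM), Myh1 (92.8 CPM), Tnni1 (29.8 CPM), Myh4 (7.14 CPM), Tnnt1 (3.11 CPM) and Myh3 (0.576 CPM). In all, 11 of the 13 skeletal genes exceeded 1 CPM in WT replicate 1, and 11 of 13 stayed under 1 CPM in each of the other 5 libraries.

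On the FPKM scale, the fast troponins outweighed the slow ones in WT replicate 1. Tnni2 had 32.7 times the FPKM of the slow troponin I gene Tnni1, Tnnt3 had 154 times that of slow Tnnt1, and Tnnc2 had 124 times that of Tnnc1, the troponin C shared by heart and slow fibres. The essential light chains went the other way, with 255 FPKM for fast Myl1 and 491 FPKM for Myl3, the chain of ventricle and slow fibres. The regulatory light chains did not, with 782 FPKM for fast Mylpf and a count of 0 for the ventricular and slow Myl2. Myh7, the beta cardiac and slow heavy chain, had 0.202 FPKM there. Among heavy chains the perinatal form led: Myh8 held 96.21% of the summed FPKM of Myh1, Myh2, Myh3, Myh4 and Myh8, and had 47.2 times the FPKM of Myh2, the chain of fast type 2A fibres. These 5 genes lie in a row over 223 kb of chromosome 10 (51770177 to 51993103, mRatBN7.2) and are close in sequence, so the split of reads among them depends on how shared reads were counted, which is not given in the sources used here.

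With all 6 libraries, the 6 skeletal genes tested had log2 fold changes from -10.24 to -1.97, 5 of them at an unadjusted p under 0.05 and none past the adjusted threshold. For Acta1 the value was -10.24 (SE 3.35, edgeR adjusted p 0.353) and for Tnni2 -9.50 (SE 3.00, adjusted p 0.338). Leaving out WT replicate 1, the Acta1 value was -0.18 (SE 0.49, adjusted p 0.898) and the Tnni2 value -1.69 (SE 0.74, adjusted p 0.268), on levels under 3 CPM. The fold changes of these genes with all 6 libraries therefore rest on WT replicate 1.

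WT replicate 1 also held other genes of skeletal fibres and of squamous epithelium. The 12 skeletal fibre markers, such as the creatine kinase Ckm and the calcium pump Atp2a1, summed to 5862 CPM there and to 111 to 238 CPM in the others; parvalbumin (Pvalb), a marker of the fastest fibres, stayed at or under 0.677 CPM in all. The 8 squamous markers, mostly keratins, summed to 3362 CPM against 14.7 to 25.2 CPM. The myogenic regulators Myod1 and Myf5 had counts in this library alone, at 5.25 and 2.51 CPM, and Mylpf, the fast regulatory light chain that the naming rule misses, had 619 CPM against 5.58 to 7.75 CPM. The part of such other cell types in the WT values of the filament genes was not tested. In whole tissue, more or fewer cells of a type and more or less RNA per cell cannot be told apart.

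The promoters of Acta1 and Myl3, 2 striated genes high in WT replicate 1, are shown because both hold a CArG box, the motif bound by serum response factor, of which actin genes are textbook targets. The box is in capitals within the 250 bases before the RefSeq start (assembly GRCr8, 5′ to 3′).
Acta1, chr19:68784195-68784444, minus strand: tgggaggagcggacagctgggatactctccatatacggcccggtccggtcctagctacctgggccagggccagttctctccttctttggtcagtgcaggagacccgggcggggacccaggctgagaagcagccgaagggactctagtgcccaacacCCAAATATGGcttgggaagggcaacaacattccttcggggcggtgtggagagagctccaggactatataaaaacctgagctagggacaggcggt
Myl3, chr8:119616844-119617093, plus strand: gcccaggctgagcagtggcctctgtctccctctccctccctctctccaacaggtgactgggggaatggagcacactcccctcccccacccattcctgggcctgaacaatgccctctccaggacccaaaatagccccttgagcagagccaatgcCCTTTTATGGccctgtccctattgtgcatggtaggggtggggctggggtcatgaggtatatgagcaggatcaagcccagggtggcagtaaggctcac
The box begins 94 bases before the start of Acta1 and 97 bases before that of Myl3. Only the letters CCWWWWWWGG, with W for A or T, were counted as a CArG box. Of the 36 members with a RefSeq window, 5 had one (Acta1, Myl3, Actg1, Myh4 and Myh15). Among the 27457 rat genes with such windows, 1.62% had one in any of them. The windows of Acta2 and Actc1 hold ccctatatgg, 1 letter off this pattern, and were not counted. MEF2 boxes were found for 2 of 36 members, against 0.601% of genes, and the E-box CANNTG for 28, against 67.0%; the motifs read the same on both strands, so each match counts for both. A match describes the letters of the window and is not a measured binding site, and some RefSeq starts, such as those of Myh8 and Myh6, may lie inside the gene.

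**Figure D2:**
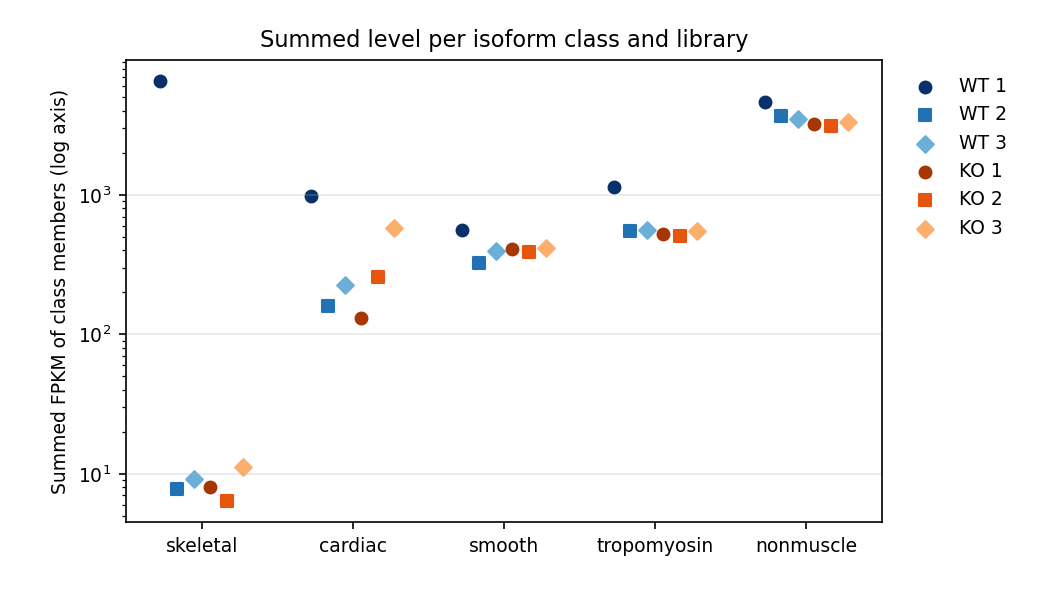
Summed FPKM of the genes of each class in each library, on a log axis. Skeletal isoforms sum to 6561 in WT replicate 1 and to 6.39 to 11.2 in the other 5 libraries. Smooth muscle sums run from 327 to 560 and nonmuscle sums from 3128 to 4648, both highest in WT replicate 1.

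Cardiac isoforms followed another order of the animals. For 7 of the 11 (Myl7, Tnni3, Tnnt2, Myl4, Myh6, Tnnc1 and Myh7), KO replicate 3 had the highest level and WT replicate 1 the lowest. The atrial regulatory light chain Myl7 had 17.4, 52.4 and 63.4 CPM in WT replicates 1 to 3 and 32.4, 71.3 and 172 CPM in KO replicates 1 to 3. Cardiac troponin I, Tnni3, had 8.13, 19.5 and 28.4 CPM in WT and 16.8, 31.3 and 64.5 CPM in KO. Within the KO group alone, replicate 3 exceeded replicate 1 by 3.84 to 6.50 times for these 7 genes. Of the others, Tnnt2 (cardiac troponin T) ranged from 10.7 to 93.9 CPM over the 6 libraries, Myl4 from 10.1 to 52.9 CPM and Tnnc1 from 4.44 to 29.1 CPM. The unclassified kinase gene Tnni3k had the same lowest and highest animals, at 0.203 and 2.68 CPM, and a log2 fold change of 1.27 with all libraries and 0.89 without WT replicate 1 (SE 0.65, edgeR adjusted p 0.545). Myl10 did not exceed 0.0648 CPM.

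The heavy chains, picked out after their values were seen, show the same pattern. Myh6, the alpha cardiac heavy chain that dominates in atria and in adult rat ventricle, had 9.85, 42.1 and 83.1 CPM in WT and 50.9, 106 and 250 CPM in KO. Myh7, the beta chain of heart and slow skeletal fibres, had 1.22, 1.96 and 5.63 CPM in WT and 3.43, 6.71 and 22.3 CPM in KO. The 2 genes are neighbours on chromosome 15, with 4.23 kb between them, and KO replicate 1 lies inside the WT range for both. Myh6 made up 89.0% to 95.6% of their summed FPKM in every library, so the ratio of the chains varied far less than their level.

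Atrial forms were present and ventricular forms nearly missing in the 5 libraries other than WT replicate 1. There, mean FPKM was 81.5 for Myl7 and 17.5 for Myl4, the atrial light chains, and 0.209 for Myl2 and 0.298 for Myl3, the ventricular and slow ones. Myl2 was missing from WT replicate 1 as well, with a count of 0. Myl3 departed from the pattern in WT replicate 1, with 470 CPM there, 0.241 CPM in each of the other WT animals and 0.389, 0.0630 and 0.510 CPM in KO. Cardiac alpha actin, Actc1, which skeletal muscle also makes during development, had 649 CPM in WT replicate 1, then 60.3 and 95.7 CPM in WT and 61.3, 111 and 230 CPM in KO. Both genes were thus highest in the library with skeletal isoforms and next highest in KO replicate 3. Myh7b, a slow-type heavy chain, stayed between 8.06 and 14.6 CPM.

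**Figure D3:**
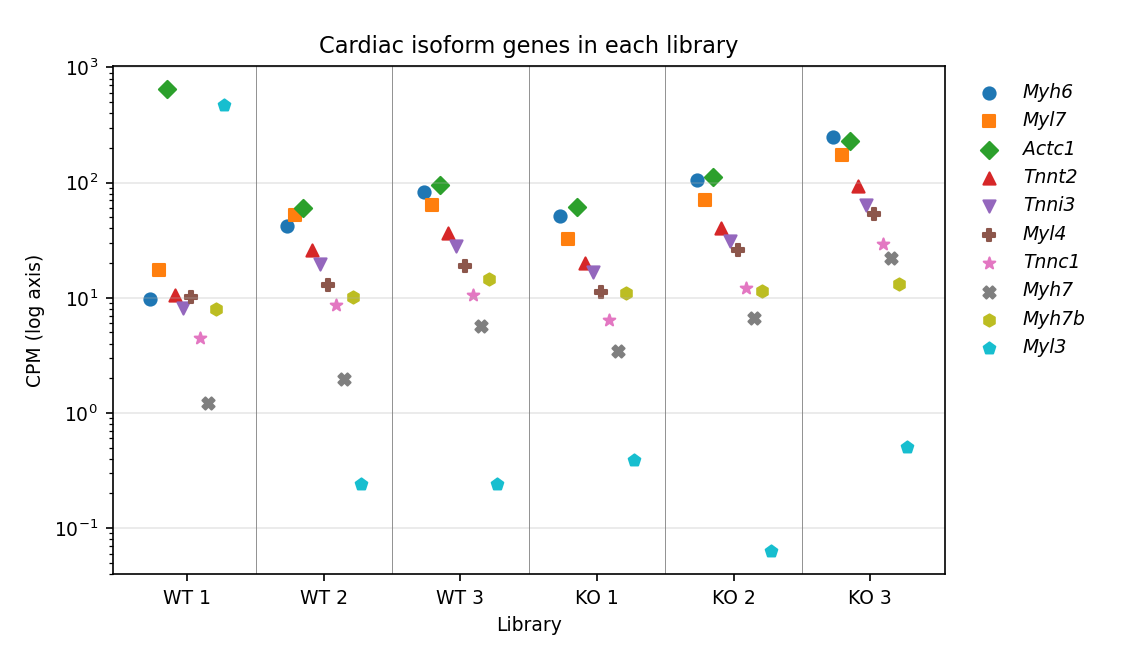
CPM of 10 cardiac isoform genes (Myl2 is not drawn) in each library, on a log axis, 1 symbol per gene. From WT replicate 2 onward most symbols keep their order and shift together, lowest in KO replicate 1 or WT replicate 2 and highest in KO replicate 3; Actc1 and Myl3 stand out in WT replicate 1.

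None of the 10 cardiac genes tested passed edgeR's test in either fit. Without WT replicate 1, the log2 fold change was 0.67 for Myl7 (SE 0.49, adjusted p 0.549), 0.65 for Tnni3 (SE 0.42, adjusted p 0.479), 0.78 for Actc1 (SE 0.42, adjusted p 0.380) and 0.40 for Myl3 (SE 0.83, adjusted p 0.864). It was 1.11 for Myh6 (SE 0.52, adjusted p 0.301) and 1.504 for Myh7 (SE 0.68, adjusted p 0.282). The values from all 6 libraries were 1.05 for Myl7, 1.005 for Tnni3, -1.0004 for Actc1 and -8.92 for Myl3, with adjusted p of 0.551, 0.524, 0.651 and 0.374. For Myh6 and Myh7 they were 1.59 (adjusted p 0.488) and 1.87 (adjusted p 0.441). The sign of the Actc1 and Myl3 values turned on whether WT replicate 1 was included.

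These values depend on KO replicate 3 and on the filter. When KO replicate 3 was left out as well, the log2 fold changes of Myl7, Tnnt2 and Tnnc1 became -0.15, -0.05 and -0.04. Those of Myh7, Myh6, Myl4, Actc1 and Tnni3 stayed above 0, at 0.42, 0.33, 0.24, 0.15 and 0.01. When genes with low counts were not removed, edgeR called 14 members without WT replicate 1 (6.27% of all genes), 11 of them higher in KO (2.77% of all genes), among them Myh6 (adjusted p 1.02e-06) and Actc1 (adjusted p 5.74e-05). Summed CPM of 10 cardiomyocyte markers was 442, 83.4 and 130 in WT and 80.1, 134 and 321 in KO; the atrial peptide gene Nppa was at or under 9.25 CPM and Nppb at or under 0.189 CPM in all libraries. Among the 5 libraries other than WT replicate 1, the marker sum ran in the same order as Myl7 and Tnni3. The sum in WT replicate 1 came mostly from Sln (276 CPM), which skeletal muscle also makes. The part of cardiac muscle cells in the values of these isoforms was not tested.

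No smooth muscle isoform passed the test in either fit. Acta2, the vascular alpha actin, had 399, 228 and 291 CPM in WT replicates 1 to 3 and 306, 282 and 312 CPM in KO. Myh11, the smooth muscle heavy chain, had 365, 251 and 336 CPM in WT and 354, 357 and 325 CPM in KO. WT replicate 1 was highest and WT replicate 2 lowest for both, so the KO animals lie inside the WT range. Actg2, the gamma actin best known from gut muscle, had 107, 46.1 and 63.5 CPM in WT and 69.4, 64.7 and 63.0 CPM in KO, and the regulatory light chain Myl9 had 165, 113 and 116 CPM in WT and 111, 111 and 118 CPM in KO.

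The log2 fold changes with all 6 libraries were -0.03 for Acta2 (SE 0.20, edgeR adjusted p 0.949), 0.12 for Myh11 (SE 0.15, adjusted p 0.731), -0.14 for Actg2 (SE 0.28, adjusted p 0.832) and -0.21 for Myl9 (SE 0.16, adjusted p 0.598). Leaving out WT replicate 1, they were 0.21 for Acta2 (SE 0.09, adjusted p 0.277), 0.24 for Myh11 (SE 0.10, adjusted p 0.270), 0.26 for Actg2 (SE 0.12, adjusted p 0.272) and -0.01 for Myl9 (SE 0.06, adjusted p 0.938). Among the alternatives run, the first 3 passed when genes with low counts were kept, where 6.27% of all genes passed. Leaving out WT replicate 3 too leaves WT replicate 2, the lowest for these 3, as the lone WT animal, so calls from that setting are not read. Summed CPM of 10 smooth muscle markers, such as Tagln and Cnn1, was 2135 in WT replicate 1 and 1087 to 1239 in the other libraries. Desmin (Des), which skeletal muscle also makes, had 743 CPM of that sum in WT replicate 1 and 68.7 to 91.7 CPM elsewhere.

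Among the tropomyosins, Tpm2 set WT replicate 1 apart and Tpm4 was close to constant. Tpm2, the beta tropomyosin gene of skeletal and smooth muscle, had 878, 78.7 and 87.1 CPM in WT and 92.3, 88.3 and 94.9 CPM in KO. Tpm1, the alpha gene, had 770, 334 and 370 CPM in WT and 331, 332 and 381 CPM in KO. Tpm3 had 428, 360 and 345 CPM in WT and 359, 351 and 346 CPM in KO. The 3 genes were thus highest in the animal with skeletal isoforms, by 9.24, 2.02 and 1.19 times over the next library. That animal was highest for 29 of the 42 genes, among them 7 of the 8 nonmuscle genes. The Tpm3 step is no larger than that of Actb, at 1.24 times. Tpm4, which encodes mainly nonmuscle tropomyosin, had 323, 323 and 314 CPM in WT and 286, 276 and 301 CPM in KO, with every KO animal under every WT animal.

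None of the 4 passed in either fit. The log2 fold changes with all libraries were -1.92 for Tpm2 (SE 0.90, edgeR adjusted p 0.467), -0.50 for Tpm1 (SE 0.31, adjusted p 0.549), -0.10 for Tpm3 (SE 0.11, adjusted p 0.698) and -0.15 for Tpm4 (SE 0.09, adjusted p 0.533). In the other fit they were 0.15 for Tpm2 (SE 0.07, adjusted p 0.300), -0.01 for Tpm1 (SE 0.07, adjusted p 0.954), -0.0012 for Tpm3 (SE 0.05, adjusted p 0.995) and -0.14 for Tpm4 (SE 0.06, adjusted p 0.224). On the FPKM scale Tpm4 made 60.4% to 64.4% of the 4 genes' sum in the 5 other libraries, but 31.8% in WT replicate 1, where Tpm2 made 42.1%.

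In the main edgeR fits, with all libraries and without WT replicate 1, only nonmuscle genes passed the adjusted threshold, and only in the latter. Some of the alternative settings also called cardiac or smooth muscle genes. Myh14 encodes the heavy chain of nonmuscle myosin 2C, found at the junctions and apical borders of epithelia (chromosome 1, 95096266 to 95158861, mRatBN7.2, minus strand). It had 583, 491 and 514 CPM in the WT animals and 301, 295 and 284 CPM in the KO animals, in replicate order. Mean levels were thus 529 ± 47.8 CPM for WT against 293 ± 8.18 CPM for KO (SD, n = 3 each), with no overlap. Myh14 fell by 0.78 on the log2 scale without WT replicate 1, a 1.71-fold lower level in KO (SE 0.05, 95% confidence interval -0.89 to -0.66, edgeR adjusted p 7.55e-05).

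The estimate for Myh14 from all 6 libraries was of like size, -0.85 (SE 0.10, 95% confidence interval -1.09 to -0.61; edgeR adjusted p 0.0867). The adjusted p was 3.66e-08 by DESeq2 and 0.0681 by limma-voom on the same 6 libraries. In the fit of 5 libraries, Myh14 passed in edgeR with each further library left out, at log2 fold changes of -0.81 to -0.75. It is absent from the authors' deposited table of 192 genes, whose smallest absolute log2 fold change is 1.0012; 0 of the 42 genes are in that table.

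Actg1, one of the pair of actins that every cell makes, was the other gene past the threshold. It had 1362, 1096 and 1017 CPM in WT and 856, 811 and 875 CPM in KO, with means of 1158 ± 180.3 CPM and 847 ± 33.1 CPM (SD, n = 3 each). All KO animals lie under all WT animals. The gene (chromosome 10, 105619738 to 105622587, minus strand) fell by 0.32 on the log2 scale without WT replicate 1, a 1.25-fold lower level (SE 0.06, 95% confidence interval -0.44 to -0.19, edgeR adjusted p 0.0143). The value from all 6 libraries was -0.45 (SE 0.13, adjusted p 0.300).

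The Actg1 call is less firm than that of Myh14. It was lost without WT replicate 2 (adjusted p 0.0727) and without KO replicate 2 (adjusted p 0.0896), each on top of WT replicate 1. A gene described as an actin gamma 1 propeptide-like copy, LOC100361457, had counts of 3885, 3504 and 3305 in WT and 2314, 2477 and 2391 in KO. The counts of Actg1 itself were 40212, 36352 and 37947 in WT and 26433, 25725 and 27455 in KO. Neither set is scaled for library size, and both are lower in every KO animal. Reads that match both copies may have been split between them, so the Actg1 level is uncertain by an amount the counts do not give.

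The promoters of the 2 called genes are shown to set them beside that of Acta1 (250 bases before the RefSeq start, GRCr8, 5′ to 3′, with the CArG box in capitals where there is one).
Actg1, chr10:106120952-106121201, minus strand: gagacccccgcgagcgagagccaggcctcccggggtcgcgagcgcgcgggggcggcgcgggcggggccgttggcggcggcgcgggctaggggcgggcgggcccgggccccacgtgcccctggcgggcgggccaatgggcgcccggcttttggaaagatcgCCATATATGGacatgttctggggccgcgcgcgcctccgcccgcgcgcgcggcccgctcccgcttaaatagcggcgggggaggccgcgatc
Myh14, chr1:104295345-104295594, minus strand: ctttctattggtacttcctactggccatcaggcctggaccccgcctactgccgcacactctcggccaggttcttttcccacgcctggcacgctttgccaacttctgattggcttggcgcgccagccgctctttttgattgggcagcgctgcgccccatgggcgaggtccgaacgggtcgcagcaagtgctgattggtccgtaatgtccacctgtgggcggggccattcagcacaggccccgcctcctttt
The box of Actg1 begins 90 bases before the start, near the distance in Acta1. The letters of a CArG box do not occur in this window of Myh14.

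The remaining nonmuscle genes did not pass in either fit. Actb, beta actin, was the most abundant of the 42 genes by FPKM in the 5 libraries other than WT replicate 1, and had 4995, 4014 and 3755 CPM in WT and 3461, 3535 and 3666 CPM in KO. Its log2 fold change was -0.26 (SE 0.13, edgeR adjusted p 0.483) with all libraries and -0.13 (SE 0.05, adjusted p 0.224) without WT replicate 1. Every KO animal was under every WT animal for Actb, as for Actg1, but by a smaller step.

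Of the light chains, Myl12a had 596, 462 and 440 CPM in WT and 419, 310 and 398 CPM in KO. It is a regulatory chain whose phosphorylation turns nonmuscle myosin on, and its neighbour Myl12b lies 3.78 kb away. The log2 fold change of Myl12a was -0.41 (SE 0.17, adjusted p 0.422) with all libraries and -0.26 (SE 0.11, adjusted p 0.231) without WT replicate 1, with KO replicate 2 the lowest. The essential chain Myl6 had 686, 629 and 615 CPM in WT and 611, 587 and 611 CPM in KO, and values of -0.09 (SE 0.09, adjusted p 0.677) and -0.04 (SE 0.05, adjusted p 0.734). Over the 6 libraries Myh9 ranged from 1268 to 1668 CPM, Myh10, the 2B heavy chain, from 291 to 338 CPM, and Myl12b from 193 to 278 CPM. These 3 genes had log2 fold changes between -0.15 and 0.04 in the 2 fits.

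**Figure D4:**
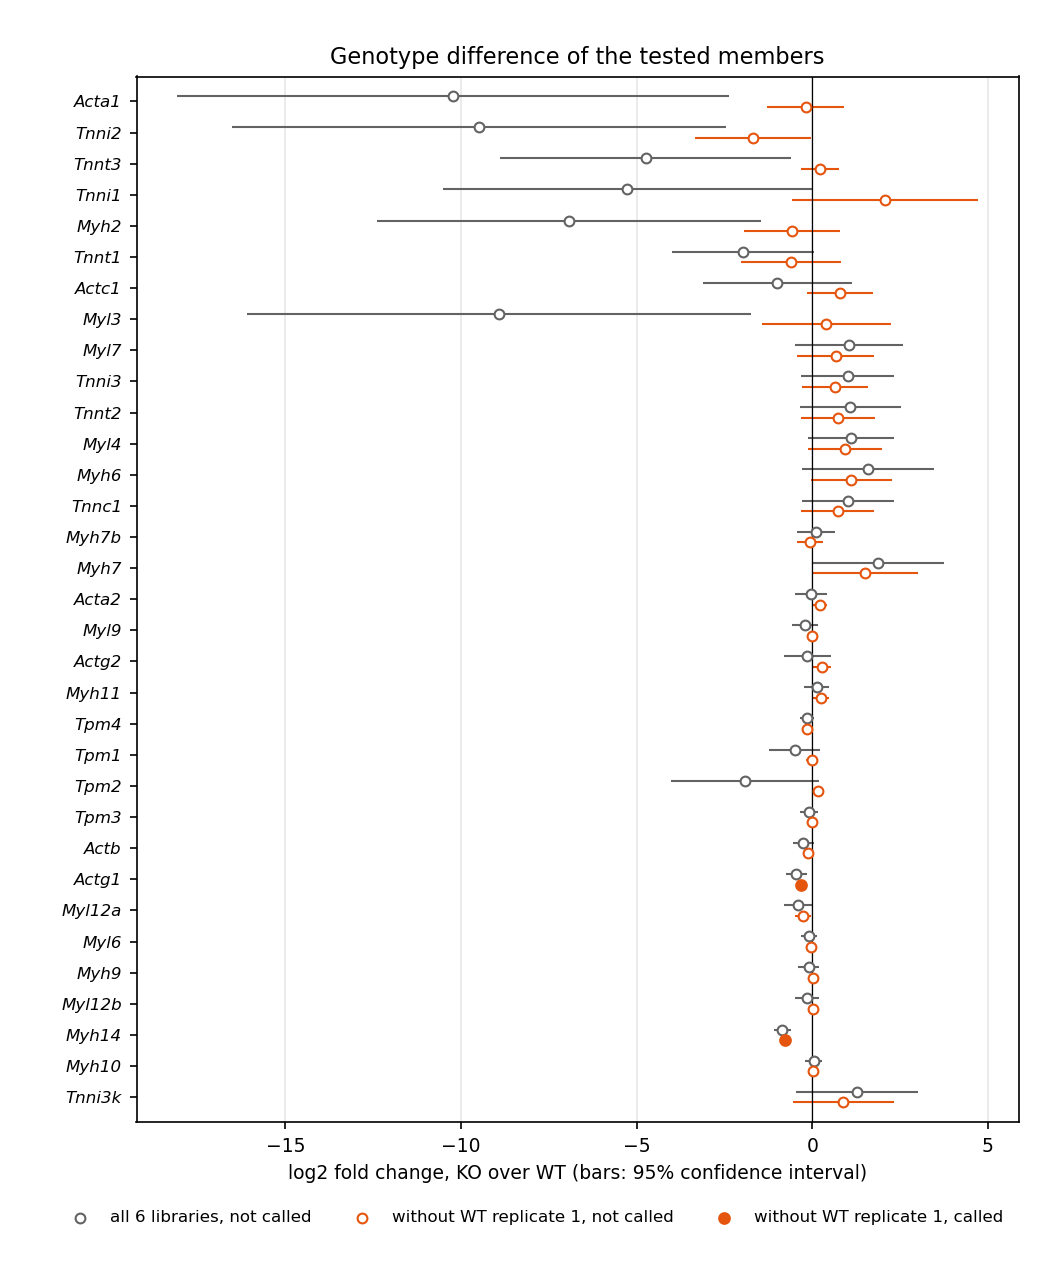
Log2 fold change, KO over WT, of the 33 tested genes from edgeR, in grey with all 6 libraries and in orange without WT replicate 1, with 95% confidence intervals; filled points passed the adjusted threshold. The wide grey intervals of the skeletal genes and of Myl3 shrink towards 0 when WT replicate 1 is left out, and the filled points are Actg1 and Myh14.

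Within families, 3 nonmuscle genes made a smaller share in every KO animal than in any WT animal; these ratios were chosen after the values were seen. Myh14 made 24.6%, 24.9% and 26.1% of the summed FPKM of the nonmuscle heavy chains Myh9, Myh10 and Myh14 in WT and 16.58%, 17.04% and 15.88% in KO. The means were 25.2% ± 0.80 and 16.5% ± 0.59 (SD, n = 3 each). This ratio is taken within each library, and WT replicate 1 lies with the other WT animals. Actg1 made 21.3%, 21.4% and 21.2% of Actb plus Actg1 in WT and 19.7%, 18.6% and 19.2% in KO. Myl12a made 71.3%, 72.0% and 72.5% of Myl12a plus Myl12b in WT and 70.8%, 64.5% and 68.3% in KO. As the shares were picked for this separation, they are given as a description, and no test result is used for them.

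**Figure D5:**
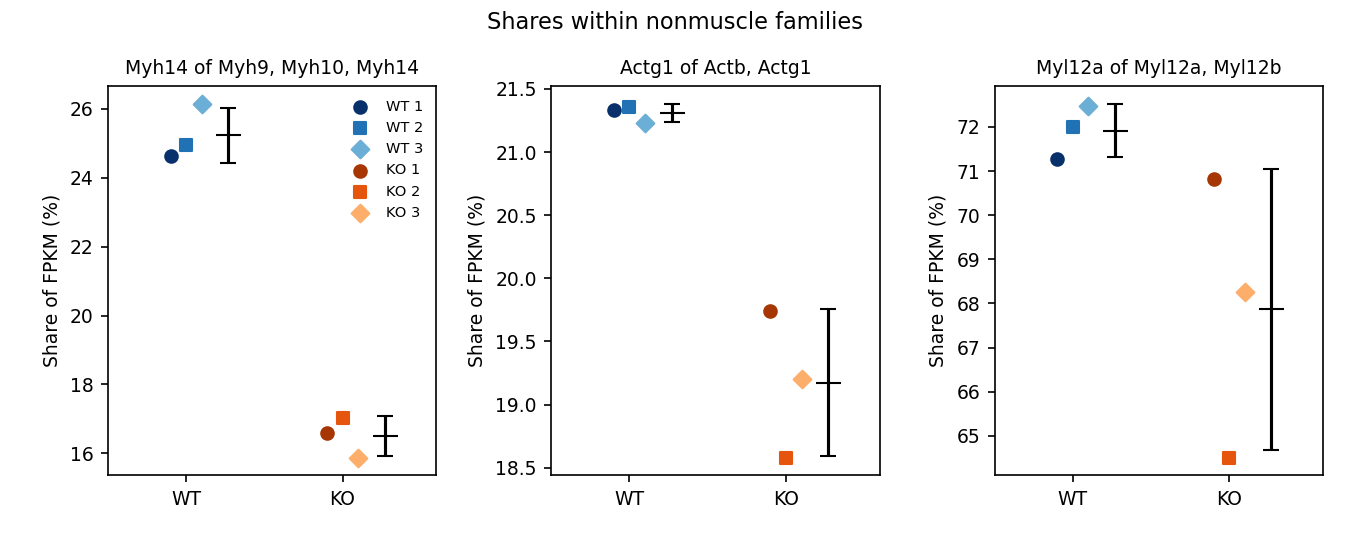
Share of FPKM that Myh14, Actg1 and Myl12a take within their nonmuscle families, per library, in percent; bars are the mean and SD of 3 animals, and the axes do not start at 0. The Myh14 share is 25.2% in WT and 16.5% in KO, and WT replicate 1 is not apart from the other WT animals.

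Some markers of other cell types were lower in KO as well in the fit without WT replicate 1. Summed CPM of 6 fibroblast markers was 9001, 5928 and 5180 in WT and 4159, 3965 and 4150 in KO, and 3 of the 6 genes, all collagens, fell, while Pdgfra had a log2 fold change of 0.13 (edgeR adjusted p 0.601). The 5 mesothelial markers summed to 145, 173 and 187 CPM in WT and 87.8, 76.5 and 125 CPM in KO, with 4 of 5 lower. The platelet markers summed to 32.8, 29.5 and 19.1 CPM in WT and 13.6, 12.8 and 10.6 CPM in KO, with 2 of 6 tested genes lower, and of 8 pericyte markers Notch3 alone was lower. Of the 8 lung markers, Cldn5 (endothelium) and Sftpc (alveolar type 2 cells) fell by 0.46 and 0.20 on the log2 scale, while Scgb1a1, the club cell secretoglobin, rose by 0.38 (edgeR adjusted p 0.00399, 0.0474 and 0.0167). None of these genes passed with all 6 libraries. The part of those cell types in the levels of Myh14 and Actg1 was not tested.

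Genes that work with the filaments were read from 5 lists of non-members, and 0 of their genes passed in either fit. The list of titin, nebulin, Z-disc and thick filament genes had 26 of 28 tested, with a median log2 fold change of -2.36 with all libraries and 0.67 without WT replicate 1. The list of striated calcium cycling and energy genes had 16 of 18 tested, with medians of -2.31 and 0.56. Both medians thus change sign with WT replicate 1, as Actc1 and Myl3 do. The 18 smooth muscle contractile genes had medians of -0.06 and -0.0088, and the 28 nonmuscle actin regulators, such as cofilin (Cfl1) and gelsolin (Gsn), had medians of -0.15 and -0.07 with 23 and 21 of 28 below 0. Of the 15 muscle transcription factors, 9 were tested with all libraries and 10 without WT replicate 1, with medians of -0.22 and 0.06. Srf, the factor that binds the CArG box, had 152, 111 and 106 CPM in WT and 93.1, 96.2 and 112 CPM in KO, and the KO animals overlap the WT range.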

How the data were processed

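Lung mRNA of 3 WT and 3 KO rats was sequenced after poly-T selection as paired reads, per the labels. Per the submitters' processing notes, the build was mRatBN7.2 and the tools included featureCounts 2.0.6, HISAT2 2.2.1 and StringTie 2.2.3; whether counting used strand, and what was done with reads that match several genes, is not given in the sources used here. Deposited tables hold raw counts and FPKM values of each gene. Low even counts outnumbered odd ones (in WT replicate 1, 3171 genes at 2, 4, 6, 8 or 10 and 1641 at an odd count below 10), so a count appears to be a read and not a fragment. The authors' deposited comparison table gives log2 fold changes and p-values for 192 genes and was used only to look for the members.

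Counts were tested as deposited in edgeR 4.0.16 (R 4.3.3) by the quasi-likelihood test on genotype, after filterByExpr at its defaults (minimum count 10, minimum total 15) and TMM scaling; p was adjusted by Benjamini-Hochberg over all genes tested. Every adjusted p is from this two-sided test unless another tool is named. A standard error is the size of the log2 change over the root of its F statistic. Alternatives were RLE scaling, DESeq2 1.42.0, limma-voom (limma 3.58.1), no filter, a replicate block and leaving out each library. Shares are of FPKM. An exact permutation test on each gave p 0.1, the smallest possible with 3 animals a group. It was not used, as the shares were picked for their separation.

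Groups and replicate numbers come from the sample titles, which call the animals biological replicates. Full values are given for genes past the threshold and for up to 4 genes of each class with the highest mean FPKM, the others by range or count; Myh6, Myh7 and the within-family shares were picked after their values were seen. The members and lists were chosen with earlier results of these data known. Promoter letters are RefSeq's for GRCr8, another build than that of the gene coordinates; 36 of 42 members matched.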

Additional observations from a re-analysis of the deposited data

How the results depend on the processing

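With all 6 libraries, edgeR called 10 genes and 0 members. The number of genes was 403 with DESeq2 (1 member, Myh14), 2 with a replicate block and 1 to 758 when libraries were left out in turn (0 to 2 members; the 758 and the 2 are without WT replicate 1). Without WT replicate 1, 758 genes and 2 members were called. That number of genes was 1144 with DESeq2, 1707 with no filter on low counts, which also called 14 members, and 233 to 522 with a further library left out, with 1 to 5 members called. The 233 genes are those without KO replicate 2, the 313 those without WT replicate 2, the 447 those without KO replicate 1 and the 485 those without WT replicate 3. Where that leaves 1 WT animal, it is assumed to vary like the KO animals.

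Same-numbered deviations from the group means correlated at -0.12, 0.05 and -0.12, and differently numbered ones at -0.18 to 0.17. These values show no pairing by replicate number, but with 3 animals a group they cannot exclude it. With a replicate block and without WT replicate 1, 9 members were called. Of these, 8 were higher (Actc1, Myh6, Myl7, Tnnt2, Tnni3, Myl4, Tnnc1 and Myh7) and 1 lower (Myh14), and the adjusted p of Actg1 was 0.0548. In that fit KO replicate 1 has no WT animal of the same number, so it adds nothing to the genotype effect. The effect rests on the remaining same-numbered pairs, a pairing for which the correlations give no sign. How many of all genes that fit called is not given here, so its calls are not read as KO differences. With all 6 libraries, the replicate block called 0 members.

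Signs turned only for log2 fold changes that did not pass in the main fits. Myl7, Tnnt2 and Tnnc1, which were called with a replicate block, are among those that turned. With all 6 libraries Acta2 was 0.0055 by limma-voom and 0.0063 with a replicate block; without WT replicate 1, Myl3 was -0.0034 by limma-voom, and with a replicate block Myl3 was -0.0383, Tpm1 0.0197, Myh10 -0.015 and Myh7b 0.0016. With libraries left out in turn, the ranges that cross 0 were Myh9 -0.17 to 0.0185, Myh11 -0.0228 to 0.24, Myh10 -0.0105 to 0.10, Acta2 -0.20 to 0.21, Myl12b -0.25 to 0.0234, Tpm2 -2.40 to 0.15, Actc1 -1.64 to 0.78, Tnnt3 -5.32 to 0.22, Myl3 -9.51 to 0.40, Actg2 -0.38 to 0.26, Myh7b -0.0707 to 0.37 and Tnni1 -5.85 to 2.07 for all 6 libraries. Without WT replicate 1 they were Myh9 -0.00529 to 0.0547, Acta1 -0.82 to 0.14, Tpm1 -0.0857 to 0.0586, Tpm3 -0.0351 to 0.0304, Myh10 -0.0114 to 0.10, Myl12b -0.0319 to 0.0775, Myl9 -0.0377 to 0.00135, Tnnt3 -0.0638 to 0.43, Myl7 -0.15 to 1.07, Tnnt2 -0.0451 to 1.11, Tnnc1 -0.0418 to 1.10, Myh7b -0.31 to 0.21 and Tnni3k -0.0848 to 1.31. The cause was not tested. The within-family shares were also computed from counts and with each library left out, settings chosen after seeing the data; their direction was fixed by how they were picked.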
